A study of Mus musculus with 6 samples.

Results

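The clustered histone genes are the mouse genes whose symbols start with Hist1h, Hist2h, Hist3h or Hist4h, and they encode the linker histone H1 and the core histones H2A, H2B, H3 and H4. They were chosen by these symbols alone, as the deposited comparison table pairs them with gene identifiers. The rule used no measured value, although earlier results of these data were known when the genes were chosen. This gave 65 of the 45792 genes in the deposited count table, namely 6 H1, 17 H2A, 19 H2B, 10 H3 and 13 H4 genes. A further 6 identifiers of the count table that carry such a symbol in the GENCODE vM21 annotation had no symbol in the deposited table and stayed outside, and all 6 had 0 counts in every heart.

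Clustered histone genes are mostly intronless and are expressed in S phase, when newly made DNA is packed into nucleosomes. Their mRNAs usually end in a conserved stem-loop, bound by the stem-loop binding protein Slbp, in place of a poly(A) tail, although some members also make polyadenylated mRNA. The stem-loop forms are poorly captured by methods that select poly(A) RNA. Ino80 encodes the ATPase of a chromatin remodeling complex that moves nucleosomes and exchanges histone variants.

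The counts came from whole hearts of mouse embryos at embryonic day 13.5, with 3 control hearts and 3 hearts of the genotype Tie2Cre;Ino80 fl/fl, called mutant here. Cre recombinase under the Tie2 promoter acts in the endothelial lineage, where it deletes the floxed Ino80 alleles, and leaves them in heart muscle cells. Whether Ino80 was also deleted in blood cells or macrophages cannot be read from these whole hearts. The labels give the control hearts as wild type and both groups as C57BL/6, whereas the study's methods count every genotype other than Tie2Cre;Ino80 fl/fl as a control and describe mixed backgrounds. The libraries were made as mRNA libraries from total RNA of the hearts. The study's methods do not state whether poly(A) RNA was selected. In whole hearts, fewer cells of a type and less RNA per cell cannot be told apart, and the p-values measure the spread between these hearts.

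The hearts had between 28948836 and 89675692 counts, of which 3443 to 8209 fell on clustered histone genes. Levels are given as CPM, the counts per M counts of a heart after scaling with the TMM method of edgeR. A count of 0 in a heart allows up to 3 counts, which is 0.0324 CPM in the deepest library and 0.103 CPM in the shallowest, and covers counting error only. Ino80 had 30.2, 31.6 and 32.7 CPM in control 1 to 3 and 36.5, 33.7 and 31.8 CPM in mutant 1 to 3, so that counts over the whole gene did not set the genotypes apart (log2 fold change 0.11, SE 0.08, adjusted p = 0.473). The 10 cardiomyocyte markers summed to between 23899 and 29273 CPM, and the 8 liver markers to at most 4.26 CPM.

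In GENCODE vM21 on GRCm38, the build of the deposited counts, 63 of the 65 identifiers have an entry. The Hist1 cluster holds 52 of them within 2.22 Mb of chromosome 13 (chr13:21715763-23934156), 23 in its proximal part and 29 in its distal part. Chromosome 3 holds 6 genes (chr3:96219865-96279001), chromosome 11 holds 3 (chr11:58948920-58956830) and chromosome 6 holds Hist4h4. Hist1h2al lies on chromosome 13 outside the cluster and is annotated as a processed pseudogene. Of the 63 genes, 57 have 1 exon and 59 are annotated as protein coding.

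The stem-loop is the sequence that sets these mRNAs apart from other mRNAs, and its 16-base element is shown for members of different classes in capitals, with 5 transcribed bases on each side in lower case. The first 4 carry the most common form, and the rest carry other forms.
Hist1h1c, chr13:23739507-23739532, plus strand: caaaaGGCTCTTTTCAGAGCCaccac
Hist3h2a, chr11:58955167-58955192, plus strand: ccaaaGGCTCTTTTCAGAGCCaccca
Hist1h2bg, chr13:23571838-23571863, plus strand: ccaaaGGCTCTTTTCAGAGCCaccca
Hist1h2ao, chr13:21810893-21810918, plus strand: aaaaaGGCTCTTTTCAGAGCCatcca
Hist1h2bk, chr13:22036295-22036320, plus strand: ccaaaGGCTCTTTTAAGAGCCactaa
Hist1h3f, chr13:23544927-23544952, plus strand: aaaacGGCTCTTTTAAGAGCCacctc
Hist1h3g, chr13:23535884-23535909, plus strand: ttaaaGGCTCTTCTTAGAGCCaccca
Hist1h4f, chr13:23551286-23551311, minus strand: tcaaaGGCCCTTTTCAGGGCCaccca
Hist1h4i, chr13:22040961-22040986, minus strand: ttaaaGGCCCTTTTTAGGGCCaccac
Hist2h4, chr3:96262934-96262959, minus strand: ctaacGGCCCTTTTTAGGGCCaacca
Hist1h4j, chr13:21735432-21735457, plus strand: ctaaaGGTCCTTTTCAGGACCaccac

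The letters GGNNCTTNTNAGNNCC, where N is any base, were searched on the transcribed strand of all annotated transcripts. They were found in 41 of the 63 histone genes, or 65.1%, and in 0.621% of the 21901 genes with protein-coding transcripts. The form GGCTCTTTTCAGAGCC was found in 21 members, of which 3 were H1, 8 H2A, 6 H2B and 4 H3 genes. The form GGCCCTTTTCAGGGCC was found in 7 members, all of them H4 genes, and each of the 12 H4 genes with the element had a different first stem from the other classes, GGCC or GGTC in place of GGCT. Of the 22 members without the letters, 14 have fewer than 50 annotated bases after the stop codon, so that the annotation ends near the coding sequence there. In 21 of the 41 members the annotated transcript runs on for at least 100 bases past the element. It runs on for 840 bases in Hist1h1c and for 1643 bases in Hist3h2a.

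Levels of the clustered histone genes in these libraries were low and very uneven. How much of their stem-loop mRNA the libraries captured is not known, which limits the levels and the comparison of genotypes alike. Hist1h1c, which encodes linker histone H1.2, had the highest level, with a mean of 25.4 CPM, and held 20.8% of all counts of the 65 genes. Only 3 genes had a mean of at least 5 CPM, and 33 had a mean under 1 CPM. Per kb of annotated exon, which is the scale for comparing genes, Hist1h1c had 16.3 CPM per kb, ahead of Hist1h2bc with 10.5 CPM per kb. The exon lengths came from GENCODE vM21, whereas the counts were made with GENCODE vM6, so that the order also depends on the annotation. The H2A pair Hist1h2ao and Hist1h2ap had 7.70 and 7.54 CPM per kb, and Hist1h2bk had 7.60 CPM per kb. The highest H3 gene was Hist1h3h, with 4.04 CPM per kb, and the highest H4 gene was Hist1h4i, with 3.36 CPM per kb. The median was 1.78 CPM per kb over all 63 genes, 0.526 for H1, 1.87 for H2A, 2.33 for H2B, 1.46 for H3 and 1.15 for H4. The lowest level was that of Hist1h1t, a linker histone of the testis, with 0.0416 CPM per kb. The 20 members with fewer than 100 annotated bases after the stem-loop had a median of 2.15 CPM per kb, and the 21 members with more had a median of 0.930 CPM per kb, where the longer annotated exon itself enters the scale.

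**Figure D1:**
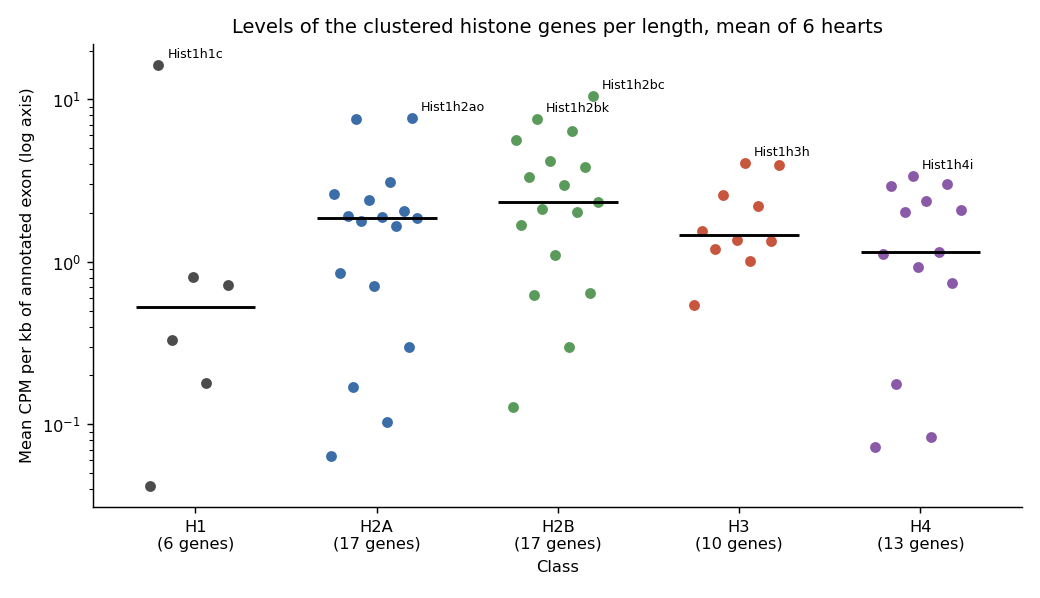
Mean level over the 6 hearts of each clustered histone gene with an entry in GENCODE vM21, in CPM per kb of annotated exon on a log axis, by class, with black lines at the class medians. Hist1h1c, at 16.3 CPM per kb, stands above the other H1 genes, and the H3 and H4 genes reach at most 4.04 and 3.36 CPM per kb.

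Reads of near-identical copies limit what can be said of single genes. The deposited reads were 76 bases long, and in the median member 38.1% of all annotated 76-base windows also occur in another gene. In 25 members at least 50% of the windows are shared, and 5 members share none. Hist1h2ao and Hist1h2ap, which lie apart in the cluster on opposite strands, share 93.1% of the windows of Hist1h2ao, and their counts differed by at most 6 in any heart, with totals of 827 and 816. Hist1h2bq and Hist1h2br share 96.0% of the windows of Hist1h2bq, and their counts differed by at most 3 in any heart, with totals of 1186 and 1187. The sum over the 6 hearts of squared differences over summed counts was 0.162 and 0.0714 for these pairs. This is less than sampling noise between separately counted genes would give, so that each pair is best read as 1 measurement. Sums over a class are given with the single genes. Both copies still enter the counts of genes and, unless stated, the sums. Reads counted on both copies would therefore enter a sum more than once.

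The first comparison asked whether clustered histone RNA differed between mutant and control hearts. Summed over all 65 genes, control 1, 2 and 3 had 118.6, 117.2 and 156.6 CPM, and mutant 1, 2 and 3 had 88.8, 117.9 and 153.7 CPM. Control 3 and mutant 3 were the highest hearts and mutant 1 the lowest, and the groups overlapped. The means were 130.8 ± 22.4 CPM in controls and 120.1 ± 32.5 CPM in mutants (SD, n = 3 each), a log2 ratio of -0.12 that was smaller than the spread between hearts. Its sign rested on single hearts, since the ratio was 0.03 without control 3, 0.05 without mutant 1 and -0.34 without mutant 3.

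Of the 65 genes, 54 had enough counts to be tested with edgeR's quasi-likelihood test among 17125 genes. The other 11, all with a mean of at most 0.279 CPM, were not tested. At an adjusted p under 0.05, 0 clustered histone genes were called in either direction, and the share called over all tested genes was 0%. DESeq2 also called 0 of them, while it called 2.67% of its genes as higher and 3.43% as lower. At an unadjusted p under 0.05, 0 histone genes were higher in mutants and 3 were lower, beside 9.48% of all tested genes that were higher and 9.98% that were lower. The fitted log2 fold change was above 0 in 22 of the 54 and below 0 in 32, with a median of -0.04, a range from -1.28 to 1.07, and 49.7% of all tested genes above 0. The median over all tested genes was 0.00.

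The precision of these values was modest. The median SE of the tested members was 0.36 on the log2 scale, against 0.21 for the 9991 tested genes whose mean lay in the same range and 0.13 for all tested genes. For 25 of the 54 genes the 95% interval stayed within a 2-fold difference in either direction. In 51 of the 54 the hearts of the groups overlapped. The mutant hearts were all above the control hearts in 1 gene, Hist2h4, and all below in 2 genes, Hist1h1c and Hist3h2a, beside 14.3% of all tested genes with all mutant hearts above and 12.8% with all below.

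**Figure D2:**
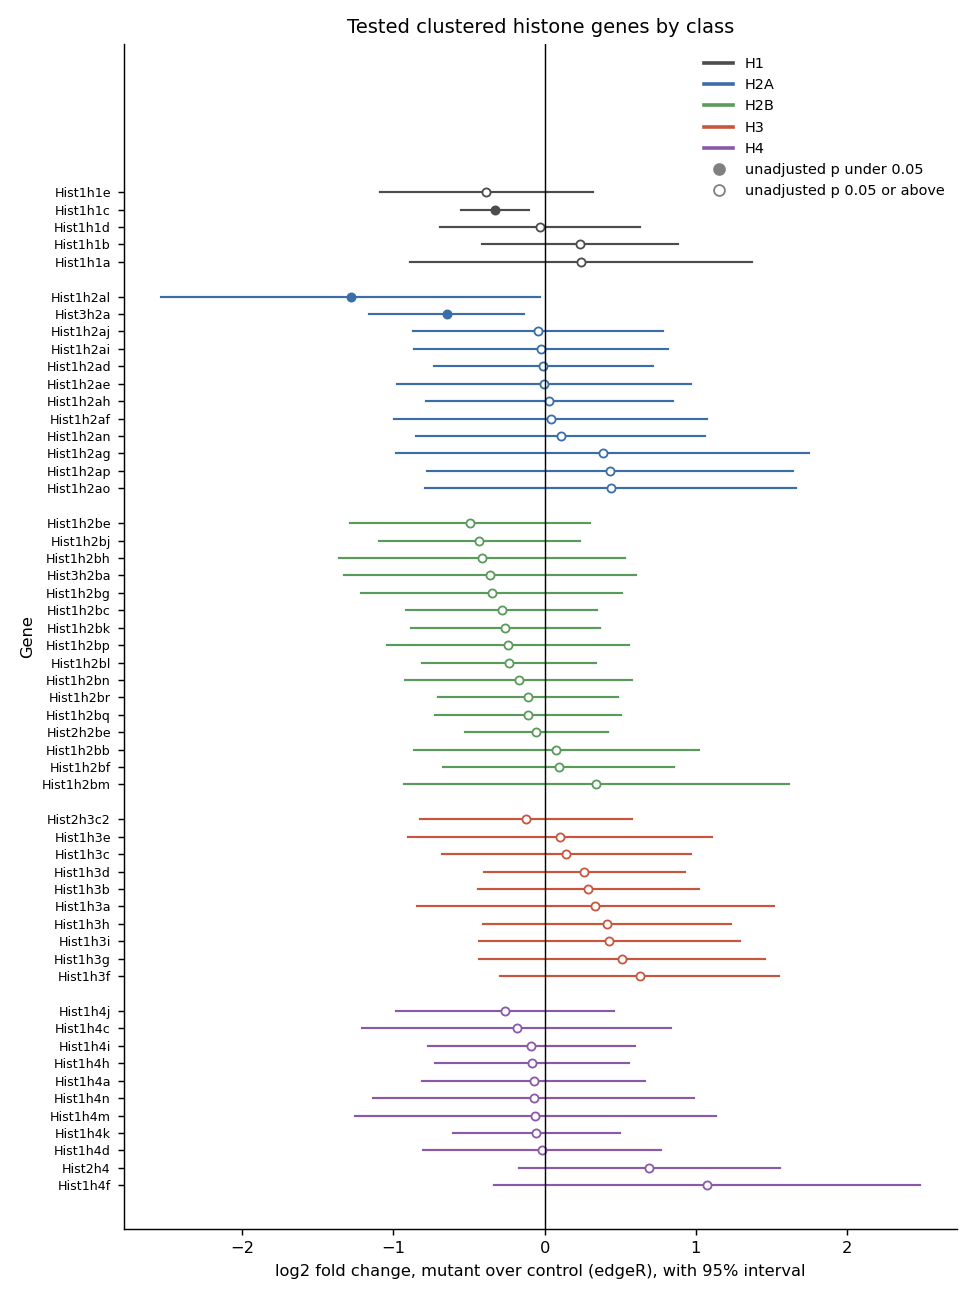
Log2 fold change, mutant over control, from edgeR for the 54 tested clustered histone genes, with 95% intervals, grouped and coloured by class, where filled points have an unadjusted p under 0.05. The interval includes 0 for 51 genes and lies below 0 for Hist1h1c, Hist3h2a and Hist1h2al.

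Linker histones bind the DNA that enters and leaves the nucleosome. Hist1h1c (ENSMUSG00000036181.2, chr13:23738808-23740367, plus strand, 1 exon) had 28.7, 26.4 and 29.5 CPM in control 1 to 3 and 20.0, 23.6 and 24.1 CPM in mutant 1 to 3. Every mutant heart was below every control heart. The means were 28.2 ± 1.64 and 22.6 ± 2.22 CPM (SD, n = 3 each), and the log2 fold change was -0.33 (SE 0.10, 95% interval -0.55 to -0.10). This gave an unadjusted p of 0.0101 and did not pass the adjustment over all genes, with an adjusted p of 0.151 from edgeR and 0.0761 from DESeq2. Hist1h1c had the smallest SE of all tested members, and 6.60% of its windows occur in another gene. The other 4 tested H1 genes had means between 0.246 and 1.39 CPM and log2 fold changes between -0.39 for Hist1h1e and 0.24 for Hist1h1a.

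Summed over the 6 H1 genes, the level was 31.4, 30.6 and 33.9 CPM in controls and 23.4, 27.0 and 27.8 CPM in mutants, a log2 ratio of -0.30. The mutant hearts were again all below the control hearts. Without Hist1h1c the log2 ratio of the sum was -0.11, so that the sum followed that gene.

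Of the 17 H2A genes, 12 were tested, with 6 log2 fold changes above 0, 6 below and a median of 0.01. H2A pairs with H2B on the outside of the nucleosome core. Hist3h2a (ENSMUSG00000078851.4, chr11:58954685-58956830, plus strand) had 4.97, 3.88 and 4.23 CPM in control 1 to 3 and 2.07, 3.38 and 2.97 CPM in mutant 1 to 3. The mutant hearts were all below the control hearts, with mutant 1 the lowest. Its log2 fold change was -0.65 (SE 0.22, 95% interval -1.16 to -0.13), with an unadjusted p of 0.0196 and an adjusted p of 0.186 from edgeR and 0.0936 from DESeq2. Its exon overlaps Trim17, which shares 30.6% of its windows and had between 0.102 and 0.803 CPM, so that reads there could have been counted for either gene.

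Hist1h2al (ENSMUSG00000091383.1, chr13:51202727-51203065, minus strand) had 0.683, 0.851 and 1.42 CPM in control 1 to 3 and 0.238, 0.776 and 0.205 CPM in mutant 1 to 3. Mutant 2 lay above control 1, so that the groups overlapped. These values rest on 6 to 46 counts per heart. The log2 fold change of this annotated pseudogene was -1.28 (SE 0.54, 95% interval -2.53 to -0.03), with an unadjusted p of 0.0455 and adjusted p values of 0.248 from edgeR and 0.199 from DESeq2. It shares 42.4% of its windows with Gm20634.

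The most expressed H2A pair varied widely within the mutant group. Hist1h2ao had 3.21, 2.45 and 3.64 CPM in control 1 to 3 and 1.22, 4.58 and 7.08 CPM in mutant 1 to 3. Mutant 1 was the lowest and mutant 3 the highest of all 6 hearts, and Hist1h2ap followed it in every heart. For Hist1h2ao the log2 fold change was 0.44 (SE 0.53, adjusted p = 0.668). Summed over all H2A genes, the level was 20.5, 16.2 and 21.5 CPM in controls and 9.26, 24.0 and 27.1 CPM in mutants. With Hist1h2ap and Hist1h2bq left out, so that each pair was counted once, the log2 ratio of the H2A sum was -0.04 in place of 0.05. With both copies kept, the H2A ratio moved further with single hearts, to 0.40 without mutant 1. It was -0.22, -0.10 and -0.06 without mutant 3, mutant 2 and control 2.

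Of the 16 tested H2B genes, 3 had a log2 fold change above 0 and 13 below, with a median of -0.24, a range from -0.49 to 0.34, and a smallest unadjusted p of 0.172. Hist1h2bc (ENSMUSG00000018102.4, chr13:23684199-23692908, plus strand, 2 exons) had 12.98, 10.9 and 15.9 CPM in control 1 to 3 and 8.02, 8.67 and 16.4 CPM in mutant 1 to 3. Mutant 1 and 2 were below every control heart and mutant 3 above every control heart. This gave a log2 fold change of -0.28 (SE 0.27, adjusted p = 0.581). Hist2h2be (ENSMUSG00000068854.7, chr3:96221119-96223738, plus strand), which shares no window with another gene, had 7.12, 8.78 and 10.6 CPM in control 1 to 3 and 7.18, 7.498 and 10.97 CPM in mutant 1 to 3. The 2 groups covered the same range. The log2 fold change was -0.05 (SE 0.21, 95% interval -0.53 to 0.42, adjusted p = 0.902). Neither gene has the stem-loop letters in its annotated transcript.

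The H2B genes held the largest part of clustered histone RNA, with sums of 49.6, 47.5 and 74.2 CPM in control 1 to 3 and 38.0, 45.5 and 64.1 CPM in mutant 1 to 3. The log2 ratio was -0.21, and it was 0.02 without control 3 and -0.45 without mutant 3. Hist2h2bb, annotated as a long noncoding RNA in vM21, was too low for the edgeR filter. It had 9, 11 and 15 counts in control 1 to 3 and 8, 0 and 0 counts in mutant 1 to 3. In CPM this was 0.236, 0.374 and 0.463 in controls against 0.0865 in mutant 1 and at most 0.0705 and 0.103 in mutant 2 and 3. DESeq2 gave Hist2h2bb a log2 fold change of -3.24 and an unadjusted p of 0.00344, without an adjusted p. The gene overlaps the exons of Gm20628 and of a second gene entry of the same symbol.

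All 10 H3 genes were tested. The log2 fold change was above 0 in 9 of them and below 0 in Hist2h3c2, with a median of 0.31 and a range from -0.12 to 0.63, and the smallest unadjusted p was 0.155, for Hist1h3f. H3 and H4 form the tetramer at the centre of the nucleosome. Hist1h3h, the highest H3 gene per length, had 0.893, 1.53 and 1.82 CPM in control 1 to 3 and 1.44, 1.55 and 2.73 CPM in mutant 1 to 3. Mutant 3 was the highest heart, as it was among the mutant hearts in each of the 10 H3 genes. Summed over H3, the level was 8.75, 11.1 and 13.4 CPM in controls and 9.84, 11.1 and 19.9 CPM in mutants, a log2 ratio of 0.30 with overlapping groups. Without mutant 3 this ratio was -0.08.

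Of the 11 tested H4 genes, 2 had a log2 fold change above 0 and 9 below, with a median of -0.07. Hist2h4 (chr3:96261682-96263311, minus strand), the gene with all mutant hearts above, had 0.184, 0.204 and 0.278 CPM in control 1 to 3 and 0.324, 0.447 and 0.308 CPM in mutant 1 to 3. These are 6 to 30 counts per heart, and the log2 fold change was 0.69 (SE 0.38, unadjusted p = 0.102, adjusted p = 0.340). Hist1h4f had the highest fold change of all members, 1.07 on the log2 scale (SE 0.61, adjusted p = 0.359), from 0.105, 0.374 and 0.370 CPM in controls and 0.260, 0.705 and 0.889 CPM in mutants. Summed over H4, the level was 8.25, 11.9 and 13.6 CPM in controls and 8.30, 10.3 and 14.9 CPM in mutants. The means of the H4 sum were 11.3 ± 2.75 and 11.1 ± 3.37 CPM (SD, n = 3 each).

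**Figure D3:**
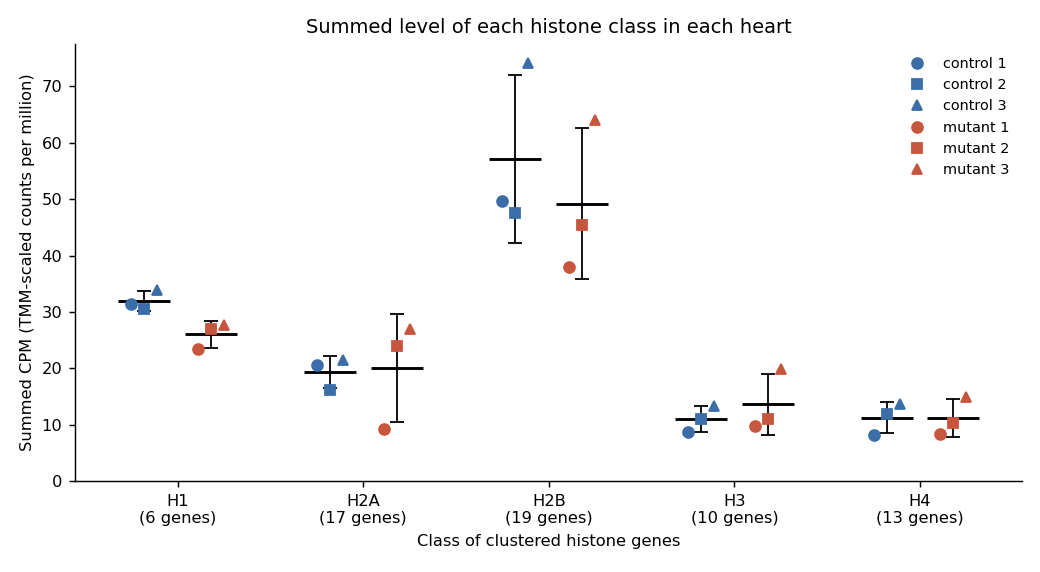
Summed CPM of each class of clustered histone genes in each heart, with control hearts in blue, mutant hearts in red, a marker shape per replicate number, and black lines at the mean with bars of 1 SD (n = 3 each). The mutant hearts lie below the control hearts for H1, at 23.4 to 27.8 against 30.6 to 33.9 CPM, and the groups overlap for the other 4 classes.

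**Figure D4:**
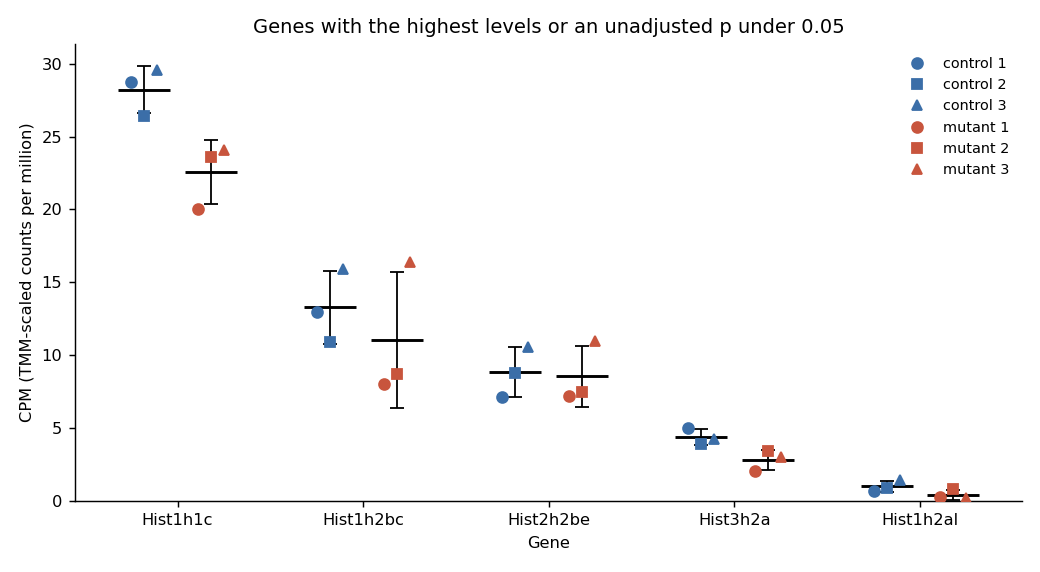
CPM in each heart of the 3 clustered histone genes whose mean reached 5 CPM and of the 2 others with an unadjusted p under 0.05, drawn with the same markers, means and SD (n = 3 each). The mutant hearts lie below the control hearts for Hist1h1c and Hist3h2a, while the groups overlap for Hist1h2bc, Hist2h2be and Hist1h2al.

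By position, the sum over the 29 genes of the distal part of the Hist1 cluster was 64.0, 62.0 and 78.5 CPM in control 1 to 3 and 46.7, 57.2 and 76.3 CPM in mutant 1 to 3. In the proximal part, with 23 genes, it was 34.9, 35.6 and 53.4 CPM in controls and 28.7, 42.3 and 55.9 CPM in mutants. The chromosome 3 genes summed to 8.96, 10.8 and 13.7 CPM in controls and 8.998, 9.33 and 13.4 CPM in mutants. The 3 genes on chromosome 11, Hist3h2a among them, summed to 8.14, 6.47 and 6.88 CPM in controls and 3.10, 7.03 and 4.89 CPM in mutants. The groups overlapped at each of these 4 places, and control 3 was the highest control heart at all of them but chromosome 11.

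The same hearts were high or low across many members. Control 3 was the highest control heart in 35 of the 54 tested genes, or 64.8%, beside 32.4% of all tested genes. Mutant 3 was the highest mutant heart in 38 of them, or 70.4%, beside 38.3% of all tested genes. Mutant 1 was the lowest mutant heart in 44, or 81.5%, beside 37.2% of all tested genes. The order was most regular in H2B, where control 3 was the highest control heart in 15 of 16 genes and mutant 1 the lowest mutant heart in 15 of 16. These counts are given without a test, since the members share reads.

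RNAs that normally have no poly(A) tail varied between hearts too. Of 16 such RNAs, among them the 7SK RNA (Rn7sk) that holds back transcription elongation, 14 had a row in the table and 5 were tested. They summed to 23.4, 43.9 and 67.5 CPM in control 1 to 3 and 40.3, 46.0 and 60.3 CPM in mutant 1 to 3. As for the histone genes, control 3 and mutant 3 were the highest hearts of their groups and mutant 1 was the lowest mutant heart. Control 1 was far below control 2 in this list, whereas the histone sums of these hearts were close. All 5 tested RNAs had a log2 fold change above 0, with a median of 0.21, and 0 passed an unadjusted p of 0.05 in edgeR, while 2 were higher without control 3. The 12 erythroid markers, of which 10 had a row, summed to 9301, 17132 and 39406 CPM in control 1 to 3 and 6443, 7587 and 11463 CPM in mutant 1 to 3, which put control 3 and mutant 3 first in their groups as well. Of these 10, 3 were higher in mutants at an unadjusted p under 0.05, the embryonic globins Hba-x, Hbb-bh1 and Hbb-y, and 5 were lower, among them the adult globins Hbb-bs and Hbb-bt, beside 9.48% and 9.98% of all tested genes. The part of these RNAs and cells in the histone values was not tested.

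**Figure D5:**
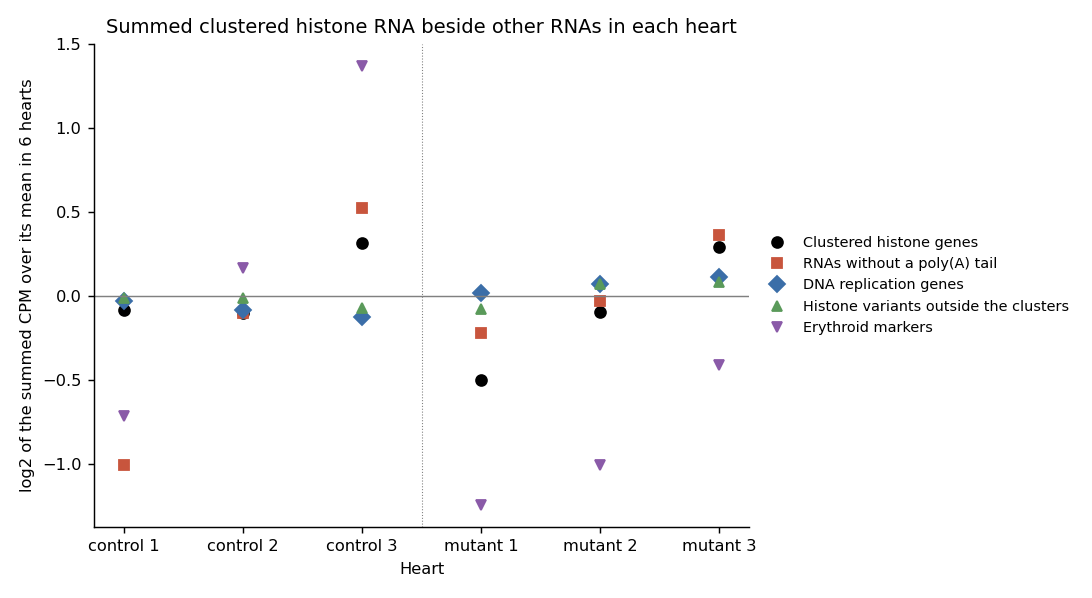
Summed CPM in each heart, as log2 of the sum over its mean in the 6 hearts, for the clustered histone genes and 4 other lists of genes. Control 3 and mutant 3 are the highest hearts of their groups for clustered histone genes, RNAs without a poly(A) tail and erythroid markers, while the DNA replication genes are above their mean in the 3 mutant hearts and below it in the 3 control hearts.

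The genes that make, process and carry histones were then read from the same fit, in which 0 passed the adjusted threshold of edgeR. Slbp, whose protein binds the stem-loop, had 53.9, 55.4 and 45.4 CPM in control 1 to 3 and 49.8, 52.0 and 44.9 CPM in mutant 1 to 3, with a log2 fold change of -0.08 (SE 0.10, adjusted p = 0.690). Npat, the coactivator of histone gene transcription, had 49.3, 41.0 and 37.3 CPM in control 1 to 3 and 43.4, 41.7 and 39.8 CPM in mutant 1 to 3, with a log2 fold change of -0.03 (SE 0.11, adjusted p = 0.897). Both were lowest in control 3 and mutant 3 within their groups. Of the 20 genes of histone transcription and 3' processing, 13 had a log2 fold change above 0 and 7 below, with a median of 0.02.

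At an unadjusted p under 0.05, 3 of these 20 genes were higher in mutants and 0 were lower, beside 9.48% and 9.98% of all tested genes, so that the count was close to that background. The 3 were Sympk, the scaffold of the cleavage complex, Srrt, which links capped RNA to processing, and Lsm11, a subunit of the U7 particle that cuts histone mRNA. Sympk had 97.2, 95.9 and 97.9 CPM in control 1 to 3 and 116.5, 115.4 and 120.6 CPM in mutant 1 to 3, with no overlap. Its log2 fold change was 0.28 (SE 0.06), with an adjusted p of 0.0906 from edgeR and 0.0134 from DESeq2, the only one of the 20 that DESeq2 called.

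Most histone variants encoded outside the clusters have polyadenylated mRNAs and are not limited to S phase, although H2afx also makes a stem-loop mRNA and Cenpa is made mainly late in the cell cycle. Of the 11 variants, 9 had a log2 fold change above 0 and 2 below, with a median of 0.09, and 5 were higher in mutants at an unadjusted p under 0.05, beside 9.48% of all tested genes. These 5 were H2afx, H2afy, H2afy2, Cenpa and H1fx. The count was 3 without control 1 and 2 without mutant 2. The linker variant H1fx had 17.0, 17.4 and 16.0 CPM in control 1 to 3 and 19.8, 25.9 and 26.4 CPM in mutant 1 to 3, with a log2 fold change of 0.51 (SE 0.12, adjusted p of 0.102 from edgeR and 0.0113 from DESeq2). H2afz, the variant exchanged by remodeling complexes of the Ino80 family, had a log2 fold change of -0.02 (SE 0.11), H3f3a of 0.02 (SE 0.08) and H3f3b of -0.03 (SE 0.10).

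Histone chaperones carry histones to DNA. Of 20 chaperone genes, 14 had a log2 fold change above 0 and 6 below, with a median of 0.12, and 5, Nasp, Chaf1a, Chaf1b, Daxx and Ssrp1, were higher in mutants at an unadjusted p under 0.05, beside 9.48% of all tested genes. DESeq2 called 3 of the 20 as higher, Nasp, Chaf1a and Chaf1b. Nasp, which buffers soluble H3 and H4, had 167.9, 172.7 and 153.7 CPM in control 1 to 3 and 197.5, 202.1 and 196.0 CPM in mutant 1 to 3. Its log2 fold change was 0.27 (SE 0.07, adjusted p of 0.125 from edgeR and 0.0370 from DESeq2). Of 15 DNA replication genes, which like the clustered histone genes are expressed in S phase, 14 had a log2 fold change above 0 and 1 below, with a median of 0.14, and 6 were higher at an unadjusted p under 0.05, all of them Mcm genes. DESeq2 called 3 of these 15 as higher, Mcm2, Mcm3 and Mcm7, beside 2.67% of all its genes. The study had already reported raised Mcm genes in the same hearts, so that neither count is independent of that result. Beside the replication genes, the 54 clustered histone genes had a median of -0.04, with a median SE of 0.36. That median was between -0.26 and 0.21 when 1 heart was left out. Whether the histone genes moved apart from the replication genes was not tested.

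Promoters were read from RefSeq on GRCm38.p6 for 55 of the 65 genes, over the 250 bases before the annotated start. The letters searched on both strands were TATAAA (the TATA box), CCAAT, ATTTGCAT (the octamer) and TTTNNCGC (an E2F-type site), and none of them contains another. CCAAT was found in 45 of the 55, or 81.8%, against 33.8% of all 32851 promoters, and TATAAA in 28, or 50.9%, against 12.4%. The octamer was found in 11, or 20.0%, against 1.601% of all promoters, and these were 6 of 15 H2A and 5 of 14 H2B promoters and no promoter of the other classes. The E2F-type letters were found in 13, or 23.6%, against 4.28%. Some H2A and H2B genes on opposite strands have overlapping windows, such as Hist1h2ae and Hist1h2bg with the octamer. Hist1h2ap and Hist1h2br, with the E2F-type letters, overlap as well. A single site can count for both genes there, so that these shares are not from separate sites. By class, CCAAT was found in 3 of 12 H4 promoters, in 7 of 8 H3 promoters and in all 6 H1, 15 H2A and 14 H2B promoters. The promoters of Hist1h1c and Hist3h2a, the 2 tested genes with all mutant hearts below the control hearts, are shown with matches in capitals.
Hist1h1c, chr13:23738557-23738806, plus strand: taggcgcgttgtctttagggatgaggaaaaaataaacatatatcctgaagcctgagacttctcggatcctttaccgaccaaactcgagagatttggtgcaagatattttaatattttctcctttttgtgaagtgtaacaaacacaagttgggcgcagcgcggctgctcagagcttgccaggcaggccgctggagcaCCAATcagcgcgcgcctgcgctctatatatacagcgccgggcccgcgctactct
Hist3h2a, chr11:58954435-58954684, plus strand: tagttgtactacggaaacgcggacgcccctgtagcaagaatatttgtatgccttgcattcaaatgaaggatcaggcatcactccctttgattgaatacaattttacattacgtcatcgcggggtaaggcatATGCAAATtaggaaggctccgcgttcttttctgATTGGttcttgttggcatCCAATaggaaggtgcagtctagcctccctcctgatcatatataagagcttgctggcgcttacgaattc

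In Hist1h1c the window holds CCAAT once, and in Hist3h2a it holds CCAAT on each strand and the octamer. The octamer match of Hist3h2a is on the minus strand and reads ATGCAAAT as printed. The TATAAA letters were in neither window, which says only that these letters are not there.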

How the data were processed

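Counts per gene in 3 control and 3 Tie2Cre;Ino80 fl/fl hearts were analysed. The authors deposited raw counts of 76-base paired-end reads, mapped with STAR 2.4.2a to GRCm38 with GENCODE vM6 and counted with summarizeOverlaps, without normalization. The strand setting and the treatment of reads that match several genes are not given in the sources used here. The authors also deposited their own DESeq2 comparison (mean signal, log2 fold change with its standard error, p-value and adjusted p-value), from which only the gene symbols were used. Columns were matched to samples by title, and each heart was counted as 1 replicate.

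The quasi-likelihood test of edgeR 4.0.16 (with limma 3.58.1, R 4.3.3) was fitted to genes kept by filterByExpr (minimum count 10, minimum total 15), with TMM scaling, condition as the only term and Benjamini-Hochberg adjustment over all 17125 genes. The SE is the size of the log2 fold change over the square root of F. Levels in CPM used library sizes scaled by TMM, and log2 fold changes are mutant over control. The fits were first tested on simulated counts with known changes. Alternatives were DESeq2 1.42.0, RLE size factors, other filters, thinning, the replicate number as a block, leaving out each heart, and, added after the data were seen, 1 copy of each near-identical pair. The main fit did not pair hearts by replicate number, and whether same-numbered hearts shared a litter is not given. Coordinates, 76-base windows and the stem-loop letters were read from GENCODE vM21, in which 63 of the 65 genes have an entry, and promoters from RefSeq on GRCm38.p6. Values per heart were to be given for genes with a mean of at least 5 CPM or an unadjusted p under 0.05, and other genes could be named. Hist1h2ao, Hist1h3h, Hist2h4, Hist1h4f and Hist2h2bb do not meet this rule, and their values per heart are given as well. The genes and lists were chosen with earlier results of these data known.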

Additional observations from a re-analysis of the deposited data

How the results depend on the processing

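At an adjusted p under 0.05, 0 clustered histone genes were called in either direction under each alternative run, among them DESeq2 and each set of 5 hearts. The median log2 fold change of the tested genes, -0.04 as reported, was between -0.09 and -0.01 under the other tools, scalings, filters, thinning and block, and between -0.26 and 0.21 when 1 heart was left out. It turned positive without control 3 (0.15) and without mutant 1 (0.21). Genes higher at an unadjusted p under 0.05, 0 as reported, were 1 with the replicate block (Hist1h4f, with 3 lower, while 1 of all genes was higher and 13 lower past the adjusted threshold) and between 0 and 4 when 1 heart was left out. The 4, without mutant 1, were Hist1h2ag, Hist1h2ao, Hist1h2ap and Hist1h4f, beside 6.93% of all genes higher. Genes lower, 3 as reported, were 4 with DESeq2 (Hist2h2bb in addition), beside 6.47% of all genes lower. They were 5 when all genes with at least 1 count were tested (Hist1h2ak and Hist2h2bb in addition). When 1 heart was left out, they were between 2 and 7. The count was 7 without mutant 3 and 6 without mutant 2, beside 9.81% and 7.22% of all genes lower. Hist1h1c was among the genes lower under every alternative. Hist3h2a was not without control 1 or mutant 1, and Hist1h2al was not in 5 settings. The log2 fold change of Hist2h2be turned positive without control 3 (0.10), mutant 1 (0.06) and mutant 2 (0.03). The H1 sum moved from -0.30 to -0.11 without Hist1h1c. The log2 ratio of the sums, when 1 heart was left out, was between -0.34 and 0.05 for all members, -0.34 and -0.22 for H1, -0.22 and 0.40 for H2A, -0.45 and 0.02 for H2B, -0.08 and 0.49 for H3, and -0.28 and 0.16 for H4, so that H1 alone kept its sign there. With library totals in place of TMM the H4 ratio was 0.05 in place of -0.02. Deviations of same-numbered hearts correlated at 0.02, -0.08 and -0.07 across genes, which cannot show whether those hearts shared a litter or a preparation. The study's methods state that controls were litter mates, without saying which hearts these were. Control 3 and mutant 3 were both highest in their groups in 50% of the 54 tested members, beside 14.5% of all tested genes. Over all genes, 0 passed the adjusted threshold with edgeR, but 262 higher and 341 lower did with all genes of at least 1 count, and 320 higher and 431 lower without control 1. Most members have few counts, and for these depth as well as the spread between hearts limits the precision.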

Other observations

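Classes were set against each other within a heart after their values had been seen, so these ratios are values without a test. The summed CPM of H3 over that of H2B was 0.176, 0.233 and 0.181 in control 1 to 3 and 0.259, 0.244 and 0.311 in mutant 1 to 3, with all mutant hearts above all control hearts. Without Hist1h2bc and Hist2h2be, the H2B genes with the highest levels, it was 0.296, 0.399 and 0.281 in controls and 0.431, 0.379 and 0.542 in mutants, and the groups overlapped. H4 over H3 was 0.943, 1.08 and 1.02 in control 1 to 3 and 0.843, 0.926 and 0.747 in mutant 1 to 3, with all mutant hearts below all control hearts. H2A over H2B was 0.414, 0.341 and 0.290 in controls and 0.243, 0.528 and 0.423 in mutants.

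The 10 endothelial markers, of a cell type in which Tie2Cre is active, summed to 1025, 888.2 and 1116 CPM in control 1 to 3 and 1031, 1022 and 973.1 CPM in mutant 1 to 3. The 8 macrophage markers summed to 80.0, 57.3 and 70.1 CPM in controls and 73.6, 73.4 and 71.9 CPM in mutants. The 9 fibroblast and epicardial markers summed to 2751, 2776 and 3924 CPM in controls and 3416, 2566 and 2655 CPM in mutants.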
